A study of Rattus norvegicus with 13 samples.

Results

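The miR-34 family in the rat consists of rno-miR-34a, rno-miR-34b and rno-miR-34c, called miR-34a, miR-34b and miR-34c below, and its 3 members were taken by name from the 677 rat miRNAs on an Agilent miRNA array. MiRNAs are short RNAs that pair with messenger RNAs and lower their output. The array was hybridised with RNA from the fat of 13 female Sprague Dawley rats, all 14 weeks old and all raised on chow by mothers on chow. The HFD group held 6 daughters of fathers fed pellets with 43% as fat, and the Control group held 7 daughters of fathers fed chow with 9% as fat. Mating took place when the fathers were 15 weeks old. The submitters describe the HFD daughters as glucose intolerant at a body weight like that of the Control daughters. Arrays are called here by group and animal number: HFD 619, 620, 624, 629, 660 and 663, and Control 622, 627, 631, 656, 658, 662 and 664. The labels name no fat depot, litter or father, so sisters could not be told from unrelated animals, and p-values measure the spread between these animals. The design asks whether the diet of a father is followed by another level of a miRNA in the fat of his daughters.

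The miR-34 miRNAs are known as targets of the tumour suppressor p53, and raised levels slow cell division and favour senescence. miR-34a is made in most tissues from a gene of its own, and in mouse fat it is known to rise with obesity and to hold back the formation of beige fat cells. miR-34b and miR-34c come from 1 shared transcript and are best known from cells with motile cilia, testis and brain. The miR-449 miRNAs carry the same seed, the stretch that selects targets, and are typical of ciliated epithelium.

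The mature sequences show how close the probes' targets are, with the seed (bases 2 to 8) in capitals, in RNA letters from the 5′ end, and were taken from RefSeq on rat genome build GRCr8. All 3 members matched an entry there. The array names carry no arm, and the 5p arm was taken because the array lists the other arm of each hairpin apart, with an asterisk.
miR-34a: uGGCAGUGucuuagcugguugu
miR-34b: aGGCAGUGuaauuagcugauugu
miR-34c: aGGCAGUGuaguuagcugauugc
miR-449a: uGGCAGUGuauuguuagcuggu
miR-449c-5p: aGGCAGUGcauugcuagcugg

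These 5 were the only ones of 693 mature rat miRNAs in the RefSeq table with the seed GGCAGUG. miR-34b and miR-34c shared 21 of 23 bases and differed by A11G and U23C, written with the miR-34b base first, its position from the 5′ end, and the miR-34c base. miR-34a shared 19 of 23 aligned positions with miR-34b and 18 of 23 with miR-34c. Mature miR-34a lies at chr5:165815971-165815992 on the plus strand, and its hairpin overlaps the long non-coding RNA gene LOC103692514. Mature miR-34b lies at chr8:60306657-60306679 and miR-34c at chr8:60306133-60306155, both on the minus strand, with 441 bases between their hairpins. Both hairpins overlap the protein-coding gene Hoatz, which is known from motile cilia in mice. miR-449a lies at chr2:46403925-46403946 and miR-449c-5p at chr2:46402394-46402414 on the plus strand, and their hairpins overlap the long non-coding RNA gene LOC134485839. Overlap was taken by position without regard to strand, and whether these sites are exonic or intronic is not given in the tables used.

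The members differed in how firmly they were measured. miR-34a was detected on 13 of 13 arrays by both of its probes, with 260 of 260 spots well above background. miR-34b was detected on 13 of 13 arrays, but through 1 of its 2 probes on all except HFD 663. miR-34c was detected on 1 of 13 arrays, HFD 663. Detection required that, for 1 or more of its probes, a share of 0.5 or more of the spots was marked well above background. The 176 of 677 miRNAs that met this on 6 or more arrays were tested, among them miR-34a and miR-34b but not miR-34c. HFD 663 had the most detected miRNAs of all arrays, 196, and the median array had 169. The 10 miRNAs listed for fat tissue, such as miR-143, miR-103 and let-7a, were all detected on 13 arrays. All 7 miRNAs listed for blood cells and the muscle miRNAs miR-1, miR-133b and miR-499 were also detected on 13 arrays. Detection of the fat list therefore cannot check the tissue label. The 13 arrays lay on 2 slides, scanned in 1 session each, with 4 HFD and 4 Control arrays on slide 1 and 2 HFD and 3 Control arrays on slide 2.

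**Figure D1:**
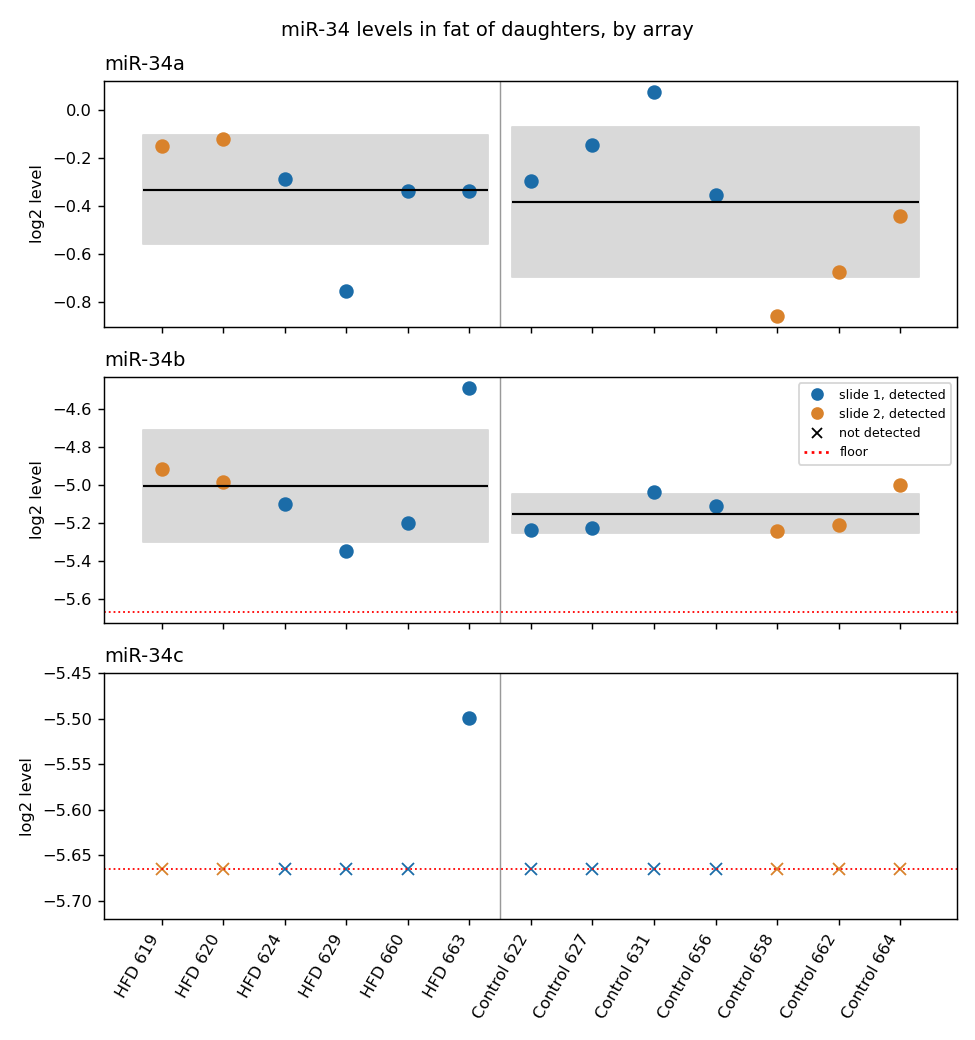
Log2 level of miR-34a, miR-34b and miR-34c on each of the 13 arrays, HFD on the left and Control on the right, coloured by slide. Black lines are group means and grey bands 1 SD (n = 6 and 7), crosses are arrays without detection, and the dotted line is the floor of -5.67. miR-34a levels of the groups overlap, and HFD 663 holds the highest miR-34b (-4.49) and the only miR-34c above the floor (-5.50).

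miR-34a lay at similar levels in both groups. A level here is the log2 of the probe signal divided by the 75th percentile of the bright probes of its array, so 0 is the brightness of that percentile. miR-34a had a lowest level of -0.76, a median of -0.31 and a highest of -0.12 in HFD fat, against -0.86, -0.35 and 0.075 in Control fat. The range of the HFD arrays lay inside the range of the Control arrays. The lowest HFD value was that of HFD 629, and the other 5 HFD arrays lay between -0.34 and -0.12, all above the Control mean. The mean was -0.33 ± 0.23 in HFD fat and -0.38 ± 0.31 in Control fat (SD, n = 6 and 7).

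The log2 difference of miR-34a, HFD minus Control, was 0.053 ± 0.15 (SE), or 1.04-fold. Its 95% interval ran from 0.833-fold to 1.29-fold, with an adjusted p of 0.983 in limma and an exact two-sided permutation p of 0.729 over 1716 splits. Without Control 658 the difference was -0.026, and without HFD 629 it was 0.14. Over the 176 tested miRNAs, 0 passed at an adjusted p under 0.05 (0%), the lowest adjusted p was 0.965, and 2 had an unadjusted p under 0.05 (1.14%). That the difference missed the threshold does not show that the levels were the same. miR-34a varied more than most over the 13 arrays, with an SD of 0.27 that ranked 34 of 176, against a median SD of 0.15 over the tested miRNAs.

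The unscaled signals of miR-34a were high and the probes moved together. Probe A_26_P00001279 read from 1383 to 1551 with a median of 1404 in HFD fat, against 1019 to 1996 with a median of 1305 in Control fat. Probe A_26_P00001280 read from 1628 to 1901 with a median of 1671 in HFD fat, against 1205 to 2399 with a median of 1548 in Control fat. Control 631 was the brightest and Control 658 the dimmest array for both probes, so the HFD arrays again lay inside the Control range. Spots of the same probe on an array had a median coefficient of variation of 4.89% and 4.07% for the 2 probes. Before scaling HFD 629 did not stand apart, with 1391 and 1628. Its 75th percentile, by which its signals were divided, was the highest of all arrays at 2540 (range 1546 to 2540).

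**Figure D2:**
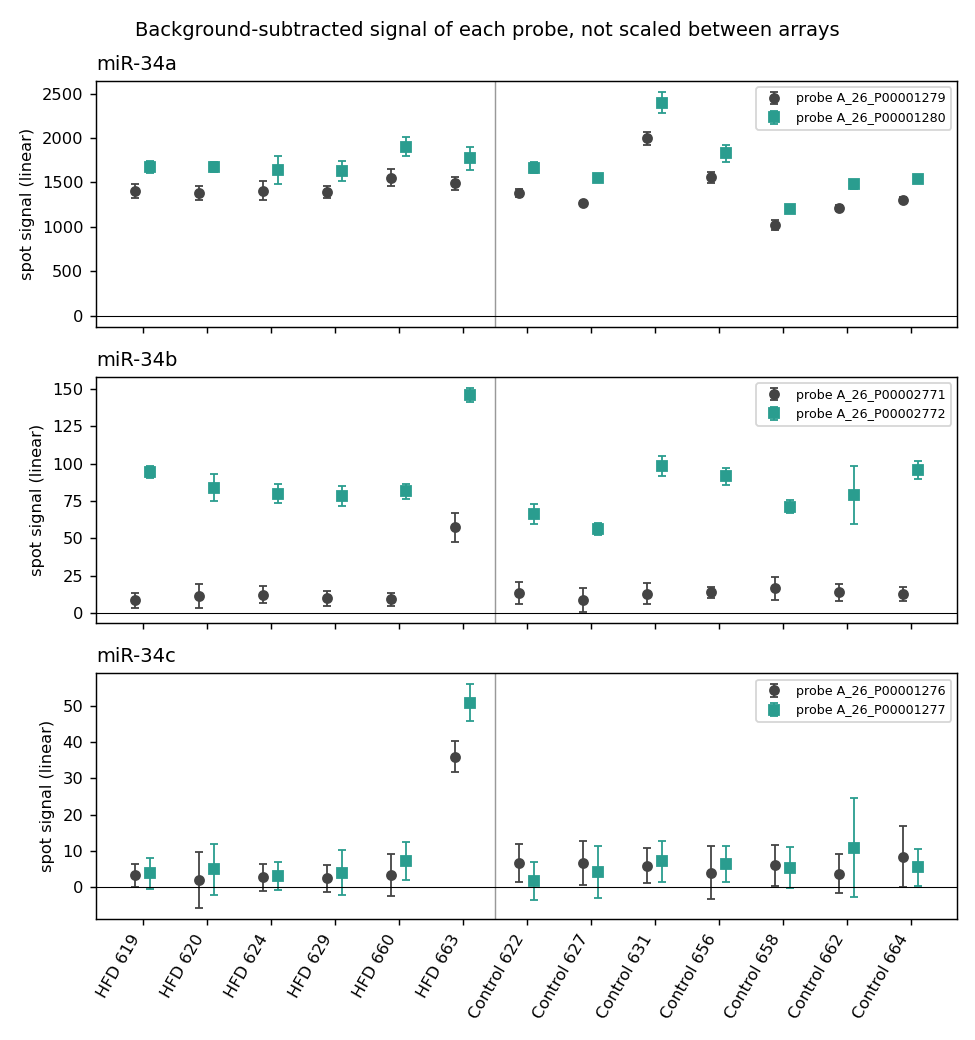
Background-subtracted signal of the 2 probes of each member on each array, HFD on the left and Control on the right, on a linear scale and not scaled between arrays. Points are means and bars SDs over the spots of a probe. The miR-34a probes lie between 1019 and 2399 on all arrays, and the probes of miR-34b and miR-34c are highest on HFD 663.

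The difference in miR-34a took opposite directions on the 2 slides. On slide 1 the 4 HFD arrays averaged -0.43 ± 0.22 and the 4 Control arrays -0.18 ± 0.19 (SD), a log2 difference of -0.25 with an adjusted p of 0.655 in limma. On slide 2 the HFD arrays had -0.15 and -0.12, against -0.86, -0.67 and -0.44 on the Control arrays. The log2 difference there was 0.52, with an adjusted p of 0.260 in limma. On that slide both HFD arrays had lower animal numbers (619 to 631), and all Control arrays had upper ones (656 to 664). The father's diet and the number range thus cannot be told apart on slide 2, which also limits the test between slides below. The groups overlapped on slide 1 and did not overlap on slide 2. With 2 HFD and 3 Control arrays such a separation arises often by chance, and how many tested miRNAs showed it was not counted.

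The test of the difference between slides gave 0.77 ± 0.21 (SE) (limma, unadjusted p = 0.00403, adjusted p = 0.164), so it did not pass. In that test 34 of 176 miRNAs had an unadjusted p under 0.05 (19.3%), and 1, the red blood cell miRNA miR-451, passed after adjustment (0.568%). Without scaling between arrays the miR-34a value was 0.33 (adjusted p = 0.319 in limma). With slide as a block, the difference of HFD minus Control was 0.039. Slide 2 minus slide 1 itself differed by -0.14 ± 0.15 (SE) for miR-34a (adjusted p = 0.804 in limma).

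**Figure D3:**
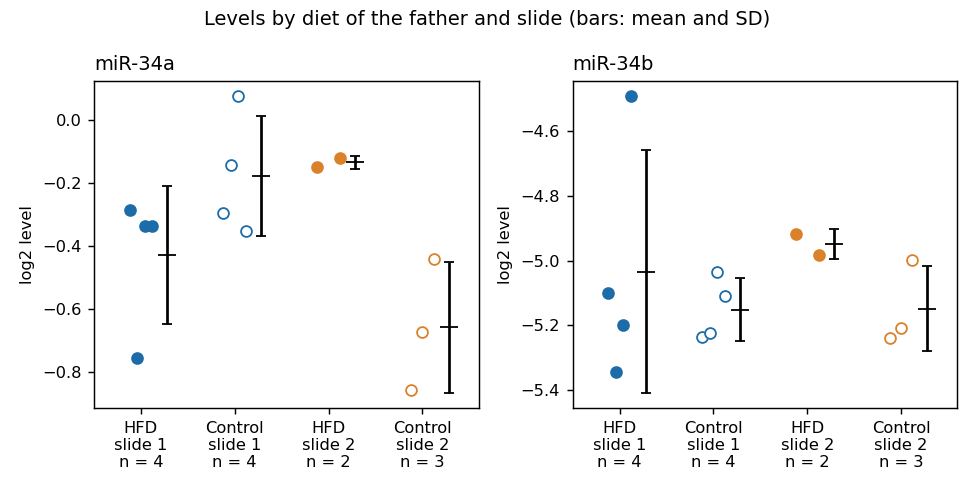
Log2 level of miR-34a (left) and miR-34b (right) for HFD and Control arrays of slide 1 and slide 2, with the mean and SD of each as a bar beside its points. On slide 2 both HFD arrays (-0.15 and -0.12) lie above the 3 Control arrays for miR-34a, and on slide 1 the HFD mean (-0.43) lies below the Control mean (-0.18).

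Markers of muscle differed widely between arrays, also among those low in miR-34a. The muscle miRNA miR-1 had a log2 level of 2.74 on HFD 629, against 2.50 on Control 662 and 1.94 on Control 664, and between -5.24 and -1.28 on the other 10 arrays. These 3 arrays were among the 4 with the lowest miR-34a levels, and Control 658, at -2.99 for miR-1, had the lowest. HFD 619, with the next highest miR-1 at -1.28, had a miR-34a level of -0.15, in the upper part of the range. Without scaling between arrays HFD 629 was not among the 4 lowest. The summed level of the 5 muscle markers ran from 0.131 to 13.3 in HFD fat, against 0.145 to 11.4 in Control fat, and 3 to 5 of the 5 were detected on each array. Without those 3 arrays miR-34a differed by 0.068 between HFD and Control (adjusted p = 0.849 in limma).

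In the same reduced set the slide test for miR-34a gave 0.86 ± 0.18 (SE) with an adjusted p of 0.0264 in limma, past the threshold, as it was for 18 of 176 miRNAs (10.2%). It rested on Control 658 as the only Control array left on slide 2, which was assumed to vary like the other arrays. Control 658 also stood apart in miR-143 and miR-145, known from smooth muscle, which lay 1.97 and 2.05 log2 units above the next array. The part of muscle or of the slide in the miR-34a values was not tested, and in whole tissue fewer cells of a type and less RNA per cell cannot be told apart.

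miR-34b had its highest level on 1 HFD array. Its lowest level was -5.34, its median -5.04 and its highest -4.49 in HFD fat, against -5.24, -5.21 and -4.997 in Control fat. HFD 663 gave the highest value, HFD 619 at -4.92 and HFD 620 at -4.98 also lay above all Control arrays, and HFD 629 was the lowest of all 13. The mean was -5.01 ± 0.29 in HFD fat and -5.15 ± 0.10 in Control fat (SD, n = 6 and 7).

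The log2 difference of miR-34b was 0.14 ± 0.11 (SE), or 1.11-fold, with a 95% interval of 0.933-fold to 1.31-fold. It was positive in 4 of 6 HFD arrays set against the Control mean, and the difference did not pass (adjusted p = 0.965 in limma, exact permutation p = 0.260). Without HFD 663 it was 0.042. Because 1 of the 2 probes was at the floor on the other 12 arrays, the mean over probes understates changes of this miRNA. On the signal of the brighter probe alone the difference was 0.21. The log2 difference was 0.12 on slide 1 and 0.20 on slide 2, and the slide test gave 0.081 (adjusted p = 0.857 in limma). The positive sign on slide 1 rested on HFD 663. The other HFD arrays of that slide had levels of -5.10, -5.34 and -5.20, against a Control mean of -5.15 there. Without HFD 663 the slide test gave 0.26 (adjusted p = 0.358 in limma).

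The probes of miR-34b behaved differently from each other. Probe A_26_P00002772 was well above background on all arrays. It read 78.2 to 145.9 with a median of 82.7 in HFD fat, against 56.2 to 98.2 with a median of 79.3 in Control fat. On HFD 663 its signal was 8.94% of the mean miR-34a probe signal, against 3.99% to 6.73% on the other 12 arrays. miR-34a shares 19 of 23 aligned positions with miR-34b, and how far miR-34a binds this probe was not tested. Probe A_26_P00002771 was well above background on HFD 663 alone, where it read 57.4, against 8.73 to 16.8 on the other 12 arrays. On HFD 663 both probes were thus brighter than on any other array, by 44.6 and 65.2 signal units over the median of the others for A_26_P00002771 and A_26_P00002772.

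miR-34c was measured on the same array only. On HFD 663 its probes A_26_P00001276 and A_26_P00001277 read 36.1 and 51.0. On the other 12 arrays they read 1.84 to 8.31 and 1.67 to 10.8, not well above background, so their order has no meaning. At a floor of -5.67 on those arrays, the level on HFD 663 was -5.50. That level is the mean of A_26_P00001277 at -5.33 and A_26_P00001276, which was at the floor on HFD 663 too. Detection was thus found in 1 of 6 HFD and 0 of 7 Control arrays. With 1 detection in all, a two-sided Fisher's exact test can give no p below 0.462, so it could not pass. No fold is given because 5 of 6 HFD arrays did not measure the miRNA.

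The 4 probes of mature miR-34b and miR-34c were thus at their highest on HFD 663, while those of miR-34a were not. There miR-34a had a level of -0.34, inside the range of the other arrays, with probe signals of 1492 and 1773 against medians of 1387 and 1654 on the others. miR-34b and miR-34c differ at only 2 positions of the sequences above, and how far either RNA binds the other's probes was not tested.

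HFD 663 also ranked highest in some other measures. It had the most detected miRNAs (196, against at most 189 on the others). Its share of spots well above background was also the largest (25.1%, against at most 24.5% on the others). HFD 663 was the highest array for only 5 of the 176 tested miRNAs, and the other arrays ran from 1 to 28. 6 miRNAs were detected there and nowhere else, namely miR-129-1*, miR-129-2*, miR-345-3p, miR-34c, miR-376a and miR-743a, and of these only miR-34c had a level above the floor. Among tested miRNAs, the distance of the highest array above the next ranked 12 of 176 for miR-34b (0.43).

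The markers of other cell types on HFD 663 were mixed. Of 6 miRNAs listed for nerve, 4 were detected there, against 1 to 4 on the others, and their summed level was the highest at 0.379, against 0.124 to 0.296 on the others. miR-204 of this list, also known from retina and brain, had a level of -1.95 on HFD 663 and at most -2.69 elsewhere, while the neuronal miR-124 was detected on no array. HFD 629, which had the lowest miR-34b, had the highest mean of the nerve list, at -4.79 against -4.83 on HFD 663. Of 7 epithelial miRNAs, 4 were detected on HFD 663, as on 3 Control arrays, and miR-141 and miR-200c on no array. Of the blood cell list all 7 were detected on every array, and its summed level on HFD 663 was 8.55, which ranked 3 of 13 (range 3.57 to 9.07). The red blood cell miRNA miR-144 was highest on HFD 663, at -0.27 against at most -0.31 elsewhere. Its distance above the next array, 0.044, ranked 115 among the tested miRNAs. miR-451, also of red blood cells, was not highest there, at 2.48 against up to 2.60 elsewhere. miR-223, miR-150, miR-342-3p, miR-142-3p and miR-142-5p of the blood cell list were likewise higher on another array.

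The 4 miR-449 products, the markers of ciliated epithelium, were detected on 0 of 13 arrays, HFD 663 included. Their brightest probe mean was 10.2 signal units for miR-449a. miR-34a*, miR-34b* and miR-34c*, from the opposite arms of the family's hairpins, were likewise at the floor on all 13 arrays, with a brightest probe mean of 13.7 for miR-34a*. The part of nerve, blood or RNA amount in the values of HFD 663 was not tested.

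The tested miRNAs whose levels ran most like miR-34a over the 13 arrays were miR-195 (r = 0.88), miR-497 (r = 0.87), miR-203 (r = 0.81), miR-335 (r = 0.79) and miR-103 (r = 0.78). These were taken as the 5 with the highest Pearson r among 156 candidates, whose median r was -0.016, and the values share each array's scaling. miR-195 and miR-497, which come from 1 cluster, were lowest on HFD 629, and Control 658 and Control 662 came next. miR-203, a miRNA of skin epithelium, was low on the same 3 arrays. Like miR-34a, all 5 had opposite directions on the slides, lower in HFD fat on slide 1 and higher on slide 2. This was not particular to them, since let-7a and miR-23a, among others, had the same directions. How many tested miRNAs did so was not counted. miR-195 averaged 0.39 in HFD and 0.59 in Control fat on slide 1, and 0.68 in HFD and 0.31 in Control fat on slide 2. miR-203 averaged -2.11 in HFD and -2.07 in Control fat on slide 1, and -1.90 in HFD and -2.38 in Control fat on slide 2. None of the 5 passed the test of HFD against Control.

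For miR-34b the likeness was weaker, with miR-503 at r = 0.56, miR-148b-3p at 0.46, miR-185 at 0.45, miR-322 at 0.43 and miR-450a at 0.43, against a median of -0.0059. miR-503, miR-322 and miR-450a lie in 1 cluster on the X chromosome in mammals. HFD 663 was not the highest array for any of these 5. Without HFD 663 the r of miR-148b-3p was 0.76 and that of miR-503 was 0.52.

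**Figure D4:**
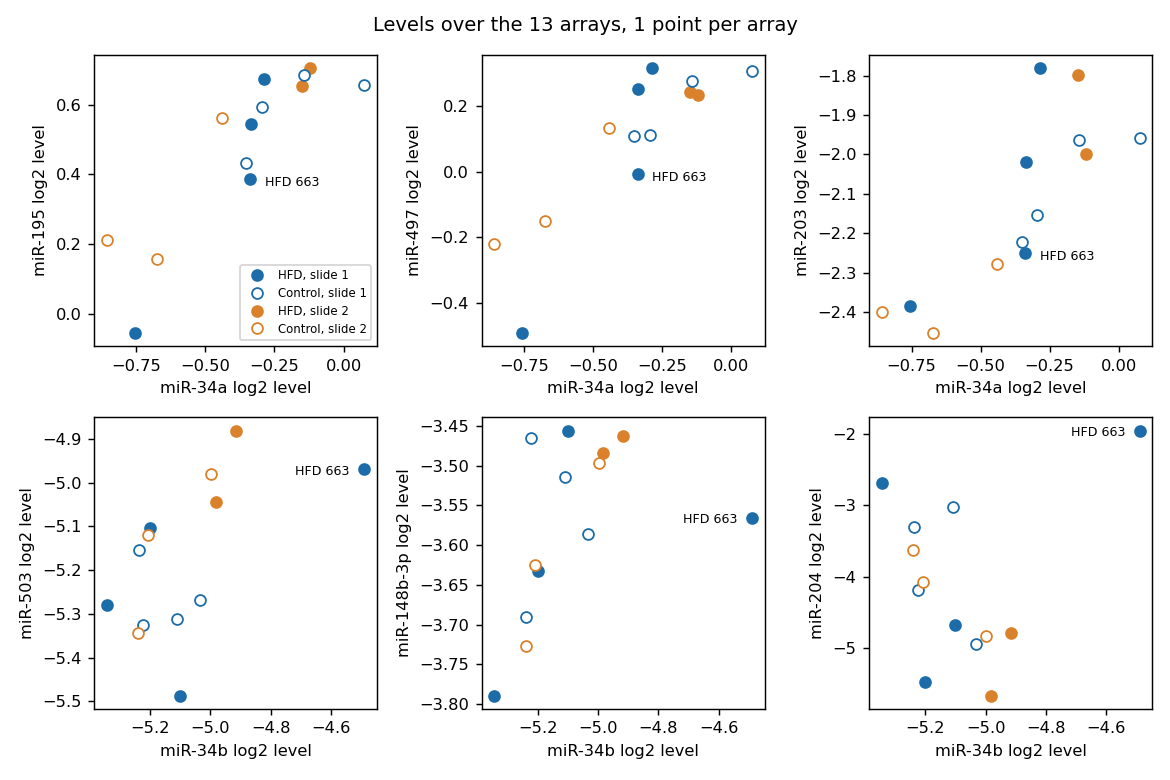
Log2 levels over the 13 arrays for miR-34a against miR-195, miR-497 and miR-203 (top) and for miR-34b against miR-503, miR-148b-3p and miR-204 (bottom), 1 point per array. Filled points are HFD and open points Control, coloured by slide. miR-195 tracks miR-34a over both groups, and HFD 663 lies alone at a miR-34b level of -4.49 and a miR-204 level of -1.95.

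Within the family, the relation between miR-34b and miR-34a was positive but did not pass after adjustment. HFD 663, the array with the highest miR-34b, was left out of these tests. Over the other 12 arrays, the scaled signal of probe A_26_P00002772 of miR-34b and the mean of the miR-34a probes had a Pearson r of 0.62 (permutation p = 0.0311, adjusted 0.0621) and a Spearman rho of 0.59 (permutation p = 0.0456, adjusted 0.0685), with p-values adjusted over 6 relations. These 6 count each relation scaled and unscaled, and include the probe pairs of miR-34a and of miR-34b. Without Control 658 and HFD 629, the arrays farthest from the median, r was 0.39. Leaving out the farthest arrays narrows the range and tends to lower r, so the fall cannot show that the relation rests on them. Scaled values also share a divisor. Unscaled, over the same 12 arrays, r was 0.50 (permutation p = 0.0995, adjusted 0.149) and rho 0.64 (permutation p = 0.0279, adjusted 0.0558). Unscaled r was 0.305 without Control 631 and Control 658, the arrays then farthest from the median. By comparison, the 2 probes of miR-34a had an r of 0.996 over the same 12 arrays (permutation p = 1e-05, the smallest 100000 resamples can give). The 2 probes of miR-34b, of which A_26_P00002771 was not well above background on these arrays, had a scaled r of 0.22 (permutation p = 0.482, adjusted 0.578). With HFD 663 included, r between miR-34b and miR-34a was 0.48 scaled and 0.43 unscaled, and rho 0.47 and 0.66.

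Other miRNAs linked to p53 also showed no difference past the test. Of 12 such miRNAs on the array, 9 were tested, 7 were higher and 2 lower in HFD fat and 0 passed, against 91 higher and 85 lower over the 176 tested miRNAs, with a median log2 difference of 0.047 against 0.0028 over all tested miRNAs. miR-203 differed by 0.17 ± 0.12 (SE), and miR-22, which is abundant in fat, by 0.092 ± 0.082 (SE). miR-192, typical of liver and gut, differed by 0.097 ± 0.11 (SE) and miR-16, which restrains the cell cycle, by 0.047 ± 0.050 (SE). On the lower side were miR-143 at -0.35 ± 0.34 (SE) and its neighbour miR-145 at -0.28 ± 0.37 (SE), both highest on Control 658. miR-141, miR-200c and miR-215 were detected on no array.

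Of 21 miRNAs on the array linked to obesity or insulin resistance in fat, 19 were tested, with 7 higher, 12 lower and 0 past the test. Their median log2 difference was -0.060. miR-221, known from preadipocytes, differed by -0.52 ± 0.27 (SE), and miR-378, which rises during fat cell differentiation, by 0.16 ± 0.11 (SE). Next by unadjusted p came miR-27b at -0.19 ± 0.14 (SE) and miR-222, at the floor on 8 arrays, at -0.33 ± 0.25 (SE). miR-335, which rises in fat of obese mice, differed by 0.14 ± 0.23 (SE), and miR-103, known from insulin sensitivity in mice, by 0.082 ± 0.12 (SE). Both also stood among the 5 most like miR-34a over arrays.

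**Figure D5:**
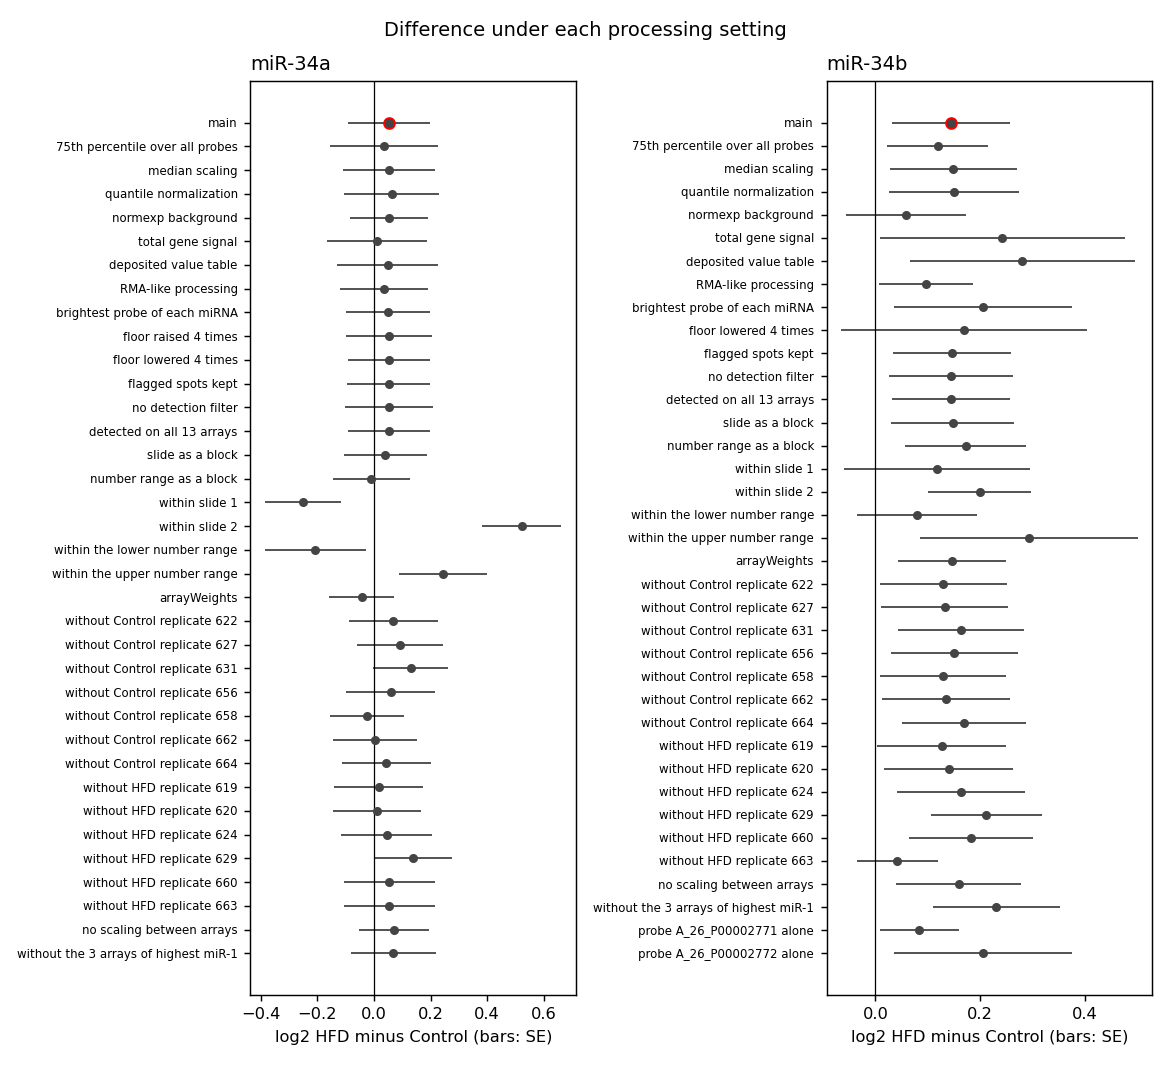
Log2 difference of HFD minus Control for miR-34a (left) and miR-34b (right) under each processing setting, with SE as bars and the reported value in red at the top. For miR-34a values run from -0.25 within slide 1 to 0.52 within slide 2, and for miR-34b all lie above 0, from 0.042 without HFD 663 to 0.29 within the upper range of animal numbers (656 to 664, the lower range being 619 to 631).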

How the data were processed

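Per the file headers, the authors read each 1-colour array with Agilent Feature Extraction 10.7.3.1 (grid on build rn4), and the deposited spot intensity is background-subtracted, linear and not scaled between arrays. The deposited value table holds log2 of the total gene signal, found by comparison with the scanner values (26 of 2569 values differed by over 2e-04, 0 of them of family members), and served as an alternative; RMA and Partek stand in the submitters' processing notes with no role. Per the labels, 100 ng of total RNA from a miRNeasy kit was labelled with Cy3. Flags of spots well above background, as deposited, were used for detection.

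For each probe the mean of its unflagged spots was scaled by the 75th percentile of its array, computed on the 260 probes that every array detected. Scaled values under 0.0197 were set to that floor, log2 was taken (floor -5.67), and a miRNA's level is the mean of its probes. Probes differ in brightness, so levels of different miRNAs were not ranked, and a summed level of a marker list is weighted by its brighter probes. The number of arrays limits the precision. limma 3.58.1 in R 4.3.3 was fitted over 176 miRNAs, with two-sided p-values adjusted by Benjamini-Hochberg and called under 0.05. A run on simulated data, drawn independently for each miRNA and with no slide effect, was made and is not used as support here. Exact permutation tests ran over 1716 splits, and correlations used scipy 1.17.1. Alternatives were other scalings, backgrounds, floors, filters, probe rules, blocks and arrays left out. Normexp used median spot signals, since mean signals were not in the files. Named miRNAs were the members, the other products of their hairpins, the miR-449 products, the 5 most like each tested member and members of the lists. The family and the lists were chosen with earlier results of these data known.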

Additional observations from a re-analysis of the deposited data

Results flagged for a closer look

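Of 17 sets of values tested for an array far from its own group (levels and probe signals of the members, by group), 6 held one, where chance flags about 1 in 20, and 5 of the 6 lay on HFD 663. These 5 are not independent, since they come from 1 array and from miRNAs of 1 transcript. On HFD 663 the miR-34c level was -5.50, against the floor of -5.67 on the other 5 HFD arrays. Any value above the floor would have stood out there, so the chance rate does not apply to it. There miR-34b probe A_26_P00002771 read 57.4, against at most 12.5 on the other HFD arrays, and probe A_26_P00002772 read 145.9, against at most 94.4. The miR-34c probes A_26_P00001276 and A_26_P00001277 read 36.1 and 51.0 on HFD 663, against at most 3.29 and 7.09 on the other HFD arrays. On HFD 629 the miR-34a level was -0.76, and the nearest HFD array lay at -0.34.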

How the results depend on the processing

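No setting called miR-34a or miR-34b in HFD against Control, and the number of called miRNAs was 0 in all 20 settings and with each array left out (lowest adjusted p = 0.104 in limma, within slide 2). The miR-34a difference of 0.053 turned negative with the range of animal numbers (619 to 631 or 656 to 664) as a block (-0.0097), within slide 1 (-0.25), within the lower number range (-0.21) and with array weights (-0.043), and ran from -0.026 (without Control 658) to 0.14 (without HFD 629) with each array left out. Its adjusted p ran from 0.260 to 1 over the settings. The miR-34b difference of 0.14 stayed positive, from 0.059 (normexp background) to 0.29 (upper number range) and from 0.042 (without HFD 663) to 0.21 (without HFD 629) with each array left out, and was 0.24 with the total gene signal, 0.28 with the deposited table and 0.23 without the 3 arrays of highest miR-1. The slide test of miR-34a ran from 0.66 to 0.88 with each array left out and passed at 0.86 (adjusted p = 0.0264 in limma) without the 3 arrays of highest miR-1. That of miR-34b turned to -0.15 with no scaling and ran from -0.022 to 0.26 with each array left out. Slide 2 minus slide 1 for miR-34b turned to -0.036 with quantile normalization. The causes were not tested. Asking every probe to be above background left miR-34b on 1 array. miR-34c, at the floor on 12 of 13 arrays, has no difference to vary, and with the floor raised 4 times miR-34b was at the floor on all arrays and gave no value. Single probes, no scaling, the reduced set without the 3 arrays of highest miR-1, and the slide test under settings other than quantile normalization were chosen after seeing the data, as was the use of median signals for normexp. No paired analysis was possible because the animal numbers in the titles are not shared between groups.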
